A study of Mus musculus with 16 samples.

Results

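The expression of 8 genes of triglyceride breakdown and synthesis was measured in the ileum mucosa of mice lacking Slfn3 and of their wild-type littermates. The genes were Pnliprp2, Pnpla3, Pnpla2, Lipe, Mgll, Dgat2, Gpat3 and Agpat2. They were matched by gene symbol in a table of 46078 genes and all 8 were found. Pnliprp2 and Pnpla3 are on the list because the study had singled them out from the comparison of genotypes in these same mice. When the study then measured both genes by qPCR, it found no significant difference between the genotypes. The other 6 genes were added with earlier results of these data known. Differences between genotypes are therefore given below as values, without a test of these genes. The list as a whole is often described as lipases, but Dgat2, Gpat3 and Agpat2 encode acyltransferases that build glycerolipids and break none down.

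The series held 16 mice of the C57Bl/6 background, 4 in each of the groups female WT, female Slfn3KO, male WT and male Slfn3KO. The Slfn3KO mice came from 1 knockout line and lacked Slfn3 (Schlafen 3, a gene of a family studied in immune cells and in intestinal differentiation). Per the labels every mouse was 8 weeks old, whereas the study's methods give an older age range. The labels name no treatment, and the tissue was mucosa of the ileum, a mixture of epithelium, immune cells and connective tissue. In such bulk RNA, fewer cells of a type and less RNA per cell cannot be told apart.

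A triglyceride is a glycerol carrying fatty acids on each of its carbons. In the gut lumen, lipases release fatty acids and monoacylglycerols from dietary fat. Enterocytes take these up, rebuild triglyceride at the endoplasmic reticulum and either export it in chylomicrons or store it for a time in cytosolic lipid droplets. Building from glycerol-3-phosphate runs through glycerol-3-phosphate acyltransferases such as Gpat3, then acylglycerol-phosphate acyltransferases such as Agpat2, and ends with the diacylglycerol acyltransferases, of which Dgat2 is one. Droplet triglyceride is opened by Pnpla2 (adipose triglyceride lipase), the diacylglycerol is cut by Lipe (hormone-sensitive lipase), and the monoacylglycerol by Mgll (monoacylglycerol lipase). Pnliprp2 is a secreted relative of pancreatic lipase that also cleaves phospholipids and galactolipids. Pnpla3 is a droplet-associated relative of Pnpla2, best known from fatty liver.

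In mm10 coordinates of the deposited table, Pnliprp2 lies on chromosome 19 from 58759723 to 58777533 on the plus strand, with 1567 exon bases in 12 blocks. Pnpla3 lies on chromosome 15 from 84167816 to 84189512 on the plus strand, with 4640 exon bases. Pnpla2 and Lipe are both on chromosome 7, Pnpla2 from 141455198 to 141460743 on the plus strand and Lipe from 25379527 to 25398710 on the minus strand. Dgat2 is on the minus strand of the same chromosome, from 99153663 to 99182713. Mgll lies on chromosome 6 from 88724412 to 88828360, Gpat3 on chromosome 5 from 100845713 to 100899102 and Agpat2 on chromosome 2 from 26593057 to 26604417. All 8 are annotated as protein coding.

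The stretches of 250 bases before the RefSeq start (GRCm38.p6) are shown for Pnliprp2, whose level varied most among the mice, and for Pnpla2 and Gpat3, whose levels followed each other most closely. Each is written 5′ to 3′ on the plus strand, which is the strand of all 3 genes, and capitals mark the GC box GGGCGG on either strand. The stretches are chr19:58759473-58759722 for Pnliprp2, chr7:141454938-141455187 for Pnpla2 and chr5:100845979-100846228 for Gpat3. The Gpat3 stretch precedes the RefSeq start but lies within the gene's span in the deposited table, which begins at 100845713.
Pnliprp2: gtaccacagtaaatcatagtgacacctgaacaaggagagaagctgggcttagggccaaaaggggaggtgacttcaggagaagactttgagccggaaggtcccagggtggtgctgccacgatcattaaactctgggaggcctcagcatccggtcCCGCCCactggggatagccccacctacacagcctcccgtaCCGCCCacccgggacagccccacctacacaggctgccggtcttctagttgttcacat
Pnpla2: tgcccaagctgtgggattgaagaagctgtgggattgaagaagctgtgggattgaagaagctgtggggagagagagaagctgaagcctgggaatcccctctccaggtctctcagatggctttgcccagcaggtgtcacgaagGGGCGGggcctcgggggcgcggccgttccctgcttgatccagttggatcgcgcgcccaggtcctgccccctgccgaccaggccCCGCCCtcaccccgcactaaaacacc
Gpat3: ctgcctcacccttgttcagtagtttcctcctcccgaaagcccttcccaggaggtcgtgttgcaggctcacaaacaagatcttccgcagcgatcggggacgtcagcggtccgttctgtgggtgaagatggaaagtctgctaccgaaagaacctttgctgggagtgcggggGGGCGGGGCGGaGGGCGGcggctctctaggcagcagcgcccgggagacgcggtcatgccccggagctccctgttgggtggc

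Pnliprp2 held 2 GC boxes, ending 92 and 52 bases before its start, both on the strand opposite to the gene. Pnpla2 held 2, ending 104 and 21 bases before the start, 1 on each strand. Gpat3 held 3 on its own strand between 81 and 64 bases before the start, of which the first 2 share a base. RefSeq promoters were matched for 7 of the 8 genes, 9 promoters in all since Mgll and Lipe have 2 each. The gene without an entry was Dgat2. A GC box was found in 7 of the 9 stretches and in 32.7% of 32851 promoters of all genes in the same window. The E-box CACGTG was found before 1 of the Mgll starts and 1 of the Lipe starts (6.02% of all promoters), and CCAAT before Pnpla3 (33.8% of all promoters). The TATA box TATAAA was found in none of the 9 (12.4% of all promoters). GC content was between 58.4% and 74.8% in the 9 stretches, against a median of 52.4% over all promoters. These are matches of letters and were not tested as binding sites.

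Library totals ran from 20823279 to 30813117 counts. Slfn3 had 0 to 2 counts in the Slfn3KO mice and 0 to 19 in WT, so it was scarce in WT mucosa as well, and male WT 4 had 0. In the WT libraries numbered 3 and 4 of both labelled sexes, the female transcript Xist and the Y-linked Ddx3y went against the label. Male and female below are the labels. The same 4 libraries had the highest levels of B cell and follicle markers, with a mean log2 CPM of 4.26 to 6.53 over the list against at most 3.68 in the other 12 mice. Position markers are given as a description of the tissue. The mean log2 CPM of the distal small intestine list (8 genes tested, among them Fabp6 and Slc10a2) was 8.92 to 9.99, and that of the proximal list was 1.70 to 4.81. The lists hold different genes, so their levels cannot verify the position of a sample. Mice differed strongly in the proximal markers, whose summed CPM ran from 58.6 in female WT 3 to 2005 in female WT 1. Values without the 4 libraries are given beside the results that moved. Without them, only the WT libraries 1 and 2 of each labelled sex remain.

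The lumenal lipase Pnliprp2 was about 2-fold higher in Slfn3KO mice than in WT mice. Female WT mice had 11.7, 48.3, 24.3 and 12.1 CPM (read counts scaled to a common library size with TMM factors) in replicates 1 to 4. Female Slfn3KO mice had 45.1, 70.3, 36.8 and 36.6 CPM. Female WT 2 lay above 3 of the 4 female Slfn3KO mice, so these groups overlapped. Male WT mice had 29.5, 28.1, 9.11 and 19.3 CPM, and male Slfn3KO mice had 68.2, 35.7, 38.7 and 33.6 CPM. The male groups did not overlap, although male Slfn3KO 1 stood far above the other 3. In females the mean was 24.1 ± 17.2 CPM for WT and 47.2 ± 15.9 for Slfn3KO, and in males 21.5 ± 9.41 for WT and 44.1 ± 16.3 for Slfn3KO (SD, n = 4 each).

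The fitted log2 fold change of Pnliprp2, Slfn3KO minus WT, was 1.0 (SE 0.31) over both sexes, 1.05 (SE 0.38) in males and 0.96 (SE 0.46) in females. Without the WT libraries 3 and 4 it was 0.63 over both sexes, 0.62 for males and 0.63 for females. Of the 4 WT libraries left out, female WT 4 and male WT 3 were among the 3 lowest mice of the series for this gene. In the comparison of sexes, the interaction (the fold change in females minus that in males) was -0.07 (SE 0.64), a difference with an interval too wide to exclude a 2-fold gap either way.

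Pnpla3 was at the edge of detection, with 4 to 19 counts per mouse and 170 counts in all 16 libraries together. Its level was 0.22 ± 0.11 TPM (counts per exon base scaled to a common total; SD, n = 16), higher than that of 2.36% of the 14822 genes tested. Male Slfn3KO mice had 18, 19, 18 and 16 counts, and male WT mice had 11, 5, 9 and 6. Female Slfn3KO mice had 4, 11, 15 and 11 counts, and female WT mice had 9, 5, 5 and 8. The male groups did not overlap and the female groups did, since female Slfn3KO 1 had the lowest level of all. The exact 95% Poisson interval, which covers counting error only, was 9.15 to 26.0 for the lowest count in male Slfn3KO mice and 5.49 to 19.7 for the highest count in male WT mice, and these intervals overlapped.

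On the CPM scale Pnpla3 in males was 0.70 ± 0.066 with the deletion and 0.27 ± 0.082 without it, and in females 0.41 ± 0.17 with it and 0.31 ± 0.12 without it (SD, n = 4 each). The level that 3 counts stand for was 0.0974 to 0.144 CPM, depending on the library. The fitted log2 fold change was 1.33 (SE 0.30) in males and 0.90 (SE 0.28) pooled. In females the gene was under the filter for scarce genes, and with all 4 groups in 1 fit the female value was 0.44. Leaving out the WT libraries 3 and 4 gave 1.35 in males, 0.33 in females and 0.85 pooled. The interaction was -0.89 (SE 0.53).

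Pnpla2 opens droplet triglyceride and was among the abundant genes here. Female WT mice had 291, 172, 147 and 177 CPM and female Slfn3KO mice had 133, 112, 171 and 167 CPM. Male WT mice had 179, 169, 149 and 202 CPM, and male Slfn3KO mice had 188, 221, 192 and 252 CPM. Female WT 1 was the highest of all 16 mice and female Slfn3KO 2 the lowest, and the groups overlapped in both sexes. The log2 fold change was 0.29 (SE 0.12) in males and -0.43 (SE 0.24) in females, and -0.07 (SE 0.16) when both were pooled. Without female WT 1 the female value was -0.18.

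Lipe, which cuts diacylglycerol, was also highest in female WT 1. Female WT mice had 196, 103, 62.6 and 103 CPM, whereas female Slfn3KO mice had 39.6, 39.6, 101 and 69.2 CPM. Male WT mice had 119, 113, 71.2 and 110 CPM and male Slfn3KO mice had 107, 158, 87.0 and 146 CPM. Female Slfn3KO 1 and 2 stood below every other mouse. The log2 fold change was 0.27 (SE 0.22) in males and -0.90 (SE 0.41) in females, and without the WT libraries 3 and 4 the female value was -1.26 and the male value 0.10. Female WT 1 was kept in that fit, and leaving it out alone gave -0.52 in females. Mgll, which cuts monoacylglycerol, was low, with 4.17 to 11.2 CPM over the 16 mice. Its mean in females was 8.78 ± 1.87 CPM for Slfn3KO and 6.55 ± 1.64 for WT, and in males 7.37 ± 2.24 for Slfn3KO and 6.42 ± 0.96 for WT (SD, n = 4 each). Mgll was the lowest in female WT 1, the mouse with the highest Pnpla2 and Lipe, and the highest in female Slfn3KO 2.

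Among the acyltransferases, Dgat2 had 277, 164, 150 and 154 CPM in female WT and 88.4, 74.0, 137 and 151 CPM in female Slfn3KO mice. In males it had 133, 178, 140 and 190 CPM in WT and 167, 188, 145 and 234 CPM in Slfn3KO mice. Female WT 1 was again far above the rest of its group and female Slfn3KO 1 and 2 were the lowest of the series. The log2 fold change was 0.20 (SE 0.17) in males and -0.73 (SE 0.29) in females, or -0.97 in females without the WT libraries 3 and 4 and -0.47 without female WT 1. Gpat3 ranged from 109 to 278 CPM and Agpat2 from 266 to 506 CPM, with female Slfn3KO 2 the lowest and female WT 1 the highest for both. Their log2 fold changes were -0.42 (SE 0.27) and -0.41 (SE 0.18) in females and -0.10 (SE 0.18) and 0.04 (SE 0.15) in males. Without female WT 1 the female values were -0.15 for Gpat3 and -0.25 for Agpat2, so the female values of Pnpla2, Lipe, Dgat2, Gpat3 and Agpat2 all lay nearer 0 without that mouse. The female values lay farther from 0 without the WT libraries 3 and 4, at -0.67 for Pnpla2, -0.65 for Gpat3 and -0.63 for Agpat2. Only female WT 1 and 2 remained as WT mice in that fit, so female WT 1 carried more weight in it. These values are therefore not a cleaner estimate.

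**Figure D1:**
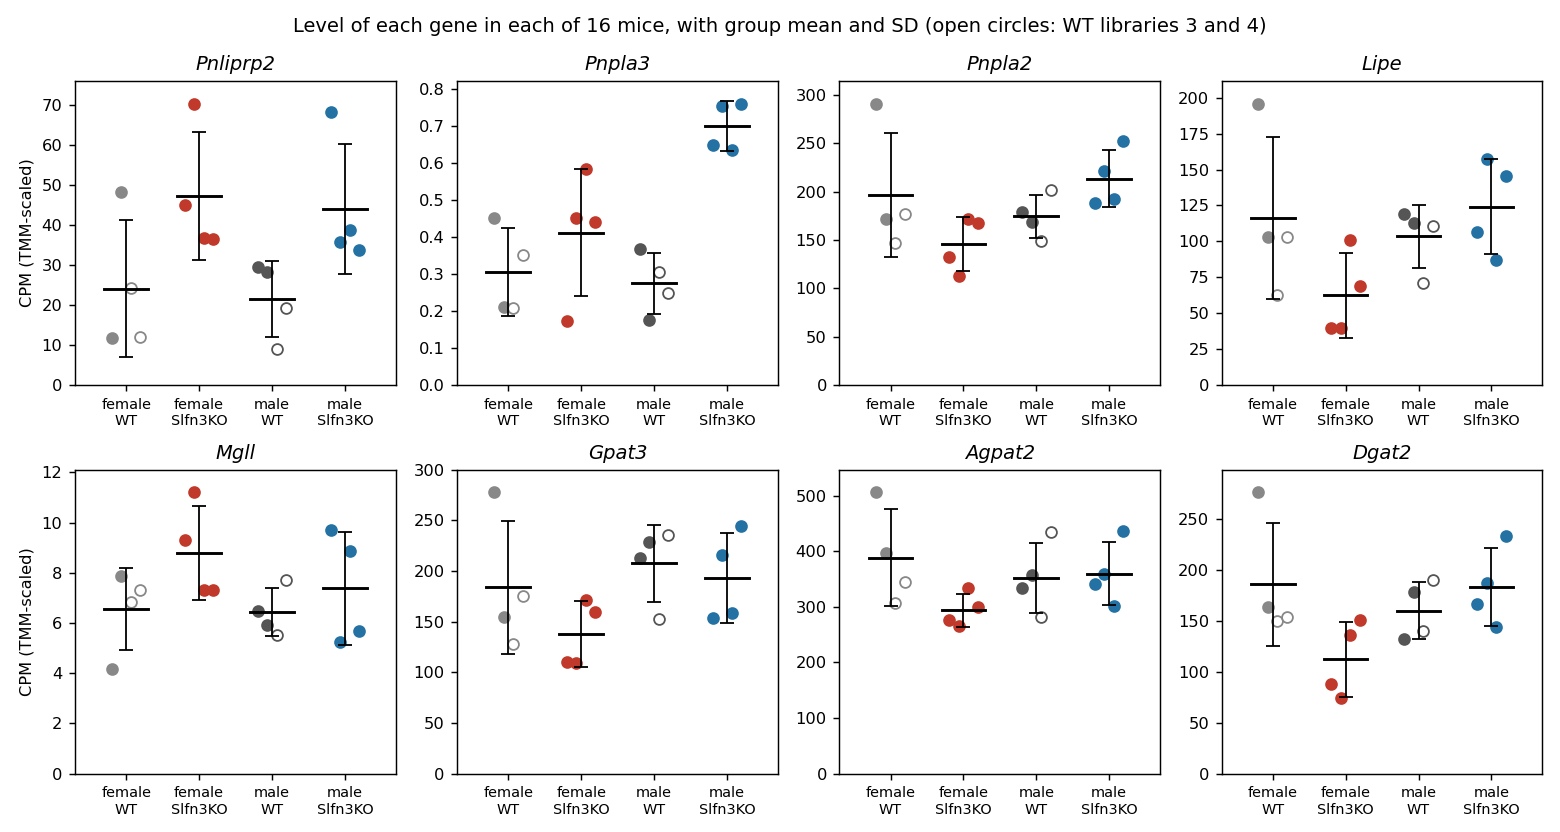
Points give the level of each gene in CPM scaled by TMM factors (vertical axis, from 0) in each of 16 mice by labelled group, with the group mean and SD (n = 4). Open circles are the WT libraries 3 and 4. Male Slfn3KO mice lie above all male WT mice for Pnliprp2 and Pnpla3, and for the other 6 genes the groups overlap in both sexes.

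Across all genes, edgeR's quasi-likelihood test with a Benjamini-Hochberg adjusted p under 0.05 plus a 1.5-fold difference called 0 of the 8 genes and 0.0% of the 14822 genes tested over both sexes. The shares were also 0.0% for males alone, for females alone and for the interaction. At an unadjusted p under 0.05 with 1.5-fold, 6.64% of genes were past the threshold over both sexes, 1.93% for males, 9.71% for females and 6.38% for the interaction. DESeq2's Wald test at the adjusted threshold called 78 genes (0.294%) pooled, 20 (0.0795%) in males, 532 (2.14%) in females and 18 (0.0678%) for the interaction, and none of them was one of the 8. In males, 171 genes (1.15%) had all 4 Slfn3KO mice above all 4 WT mice, and Pnliprp2 and Pnpla3 were 2 of these. In females, where 4.74% of genes were higher and 3.04% lower without overlap, none of the 8 was among them. Of the 8 genes, 3 had a pooled log2 fold change above 0, as had 49.3% of all genes tested. Nothing is read from these counts, since these genes were chosen from the same comparison.

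The values by labelled sex are set side by side for the 6 remaining genes, as a description. Since the WT libraries 3 and 4 carried sex transcripts against their label, these values do not contrast the sexes cleanly. In females the log2 fold changes of Pnpla2, Lipe, Dgat2, Gpat3 and Agpat2 lay between -0.90 and -0.41, and in males between -0.10 and 0.29. The interaction was -0.72 (SE 0.28) for Pnpla2, -1.16 (SE 0.50) for Lipe and -0.92 (SE 0.35) for Dgat2. It was -0.31 (SE 0.34) for Gpat3 and -0.43 (SE 0.24) for Agpat2. Mgll was apart from these 5, with a log2 fold change of 0.41 (SE 0.23) in females, 0.21 (SE 0.24) in males and an interaction of 0.22 (SE 0.34). Without the WT libraries 3 and 4 the interaction was called by edgeR for 359 genes (2.38%), and 0 of the 8 were among them. That fit kept only WT 1 and 2 of each labelled sex, female WT 1 among them.

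Enterocyte markers moved along with these genes. The summed CPM of 10 markers (among them Vil1, Sis and Apoa4) was 11356 to 31442 in female Slfn3KO and 19563 to 68377 in female WT mice. It was 33339 to 58868 in male Slfn3KO and 23883 to 48217 in male WT mice. All 10 markers had a log2 fold change below 0 in females (median -0.63), where 48.9% of all genes were above 0. In males 7 of 10 were above 0 (median 0.04), against 49.6% of all genes. Paneth cell markers (antimicrobial products of the crypt base, 10 genes) went the other way in females, with a median log2 fold change of 1.62 and all 10 above 0. In males 9 of these 10 were above 0 (median 0.38). The part of the share of enterocytes in the values of the lipase and acyltransferase genes was not tested.

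Per exon length, the 8 genes spanned a wide range. The mean level was 395 ± 54.1 TPM for Agpat2, 171 ± 42.6 for Dgat2, 146 ± 26.8 for Pnpla2 and 124 ± 26.4 for Gpat3 (SD, n = 16 each). It was 54.1 ± 30.5 TPM for Pnliprp2, 53.7 ± 18.8 for Lipe, 3.69 ± 1.1 for Mgll and 0.22 ± 0.11 for Pnpla3. Agpat2 was above 97.9% of the genes tested and Mgll above 32.1%. Among the 8, the acyltransferase of each step and the first lipase of the droplet thus stood at the top, and the lipase of the last step near the bottom.

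The order of levels was tested for all 28 pairs by an exact two-sided sign-flip permutation test of log2(TPM + 0.1) within mice, which does not use genotype. In 27 pairs the difference passed, with adjusted p between 4.07e-05 and 0.00187. The narrowest of these was Dgat2 above Pnpla2 by 0.21 on the log2 scale, in 13 of 16 mice. Pnpla2 exceeded Gpat3 by 0.25, also in 13 mice (adjusted p = 0.000822 in the exact test). Pnliprp2 and Lipe were neighbours that could not be ordered. Their difference was -0.13 ± 1.23 (SD, n = 16, exact permutation test, adjusted p = 0.676), with Pnliprp2 higher in 8 of 16 mice. The levels per length depend on 1 exon length for each gene, whatever the isoform.

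**Figure D2:**
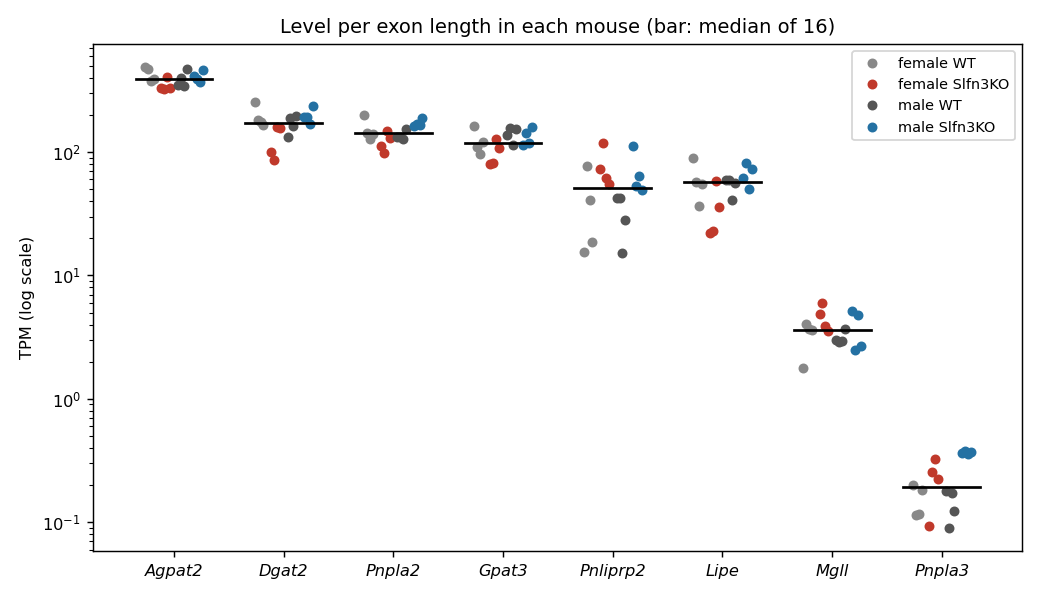
Points give the level per exon length of each gene in TPM (vertical axis, log scale) in each of 16 mice, coloured by labelled group, and bars give the median over the 16. Agpat2, Dgat2, Pnpla2 and Gpat3 lie near the top, Pnliprp2 and Lipe share a range, and Pnpla3 lies below 1 TPM in every mouse.

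The genes also differed in how much mice of the same group varied. The SD of log2 CPM around the group means was 0.70 for Pnliprp2, more than for 85.6% of the genes tested. It was 0.54 for Lipe, 0.42 for Pnpla3, 0.38 for Dgat2, 0.37 for Gpat3, 0.35 for Mgll, 0.29 for Pnpla2 and 0.24 for Agpat2. The highest mouse exceeded the lowest 7.72-fold for Pnliprp2 and 1.90-fold for Agpat2.

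Within groups, 5 of the genes rose and fell together from mouse to mouse. Deviations of log2 CPM from the group means were correlated for all 28 pairs, with 100000 permutations within groups. In 15 pairs the adjusted p was under 0.05, 11 with a positive and 4 with a negative r. The 5 genes Agpat2, Dgat2, Pnpla2, Gpat3 and Lipe formed 10 of these pairs, with Pearson's r between 0.82 and 0.95, Spearman's rho between 0.78 and 0.98 and an adjusted permutation p of at most 0.0138. Without female WT 1, 9 of the 10 pairs passed, the exception being Lipe with Dgat2 (r = 0.74, adjusted permutation p = 0.0661). These 5 were grouped after their values were seen. Enzymes that build triglyceride and the first lipases that break it down were thus in the same set. The highest was Pnpla2 with Gpat3, whose upstream stretches are shown above (r = 0.95, rho = 0.98, adjusted permutation p = 0.0007), and without the 2 mice farthest from the median r was 0.92. Over the 10 pairs r was between 0.70 and 0.92 without such mice.

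Mgll ran against this set. Its r was -0.71 with Dgat2, -0.70 with Gpat3, -0.69 with Pnpla2 and -0.66 with Lipe (adjusted permutation p between 0.0275 and 0.0402), and -0.45 with Agpat2 (adjusted permutation p = 0.188). Without female WT 1 none of the 5 pairs passed and r with Dgat2 was -0.57, and none passed without female Slfn3KO 1, 2 or 4 either. Without the WT libraries 3 and 4 all 5 passed, with r between -0.95 and -0.81. Mgll and Pnliprp2 had an r of 0.60 (rho = 0.66, adjusted permutation p = 0.0449), which was past the threshold by little. Leaving out single mice gave r between 0.50 and 0.72, and the adjusted p was over 0.05 in 13 of these 16 cases.

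Pnliprp2 did not follow the 5 genes. Its r with them was between -0.41 and -0.09 and no pair passed. Without the WT libraries 3 and 4 the values were between -0.90 and -0.66, and 3 of the 5 pairs passed, among them Pnpla2 (r = -0.90, adjusted permutation p = 0.0212). Pnliprp2 and Pnpla3, the pair singled out by the study, had an r of -0.42 within groups (rho = -0.47, adjusted permutation p = 0.188). With the group means left in, r was 0.23 (adjusted permutation p = 0.429). Pnpla3 passed with none of the other 7 genes, at the few counts it had.

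**Figure D3:**
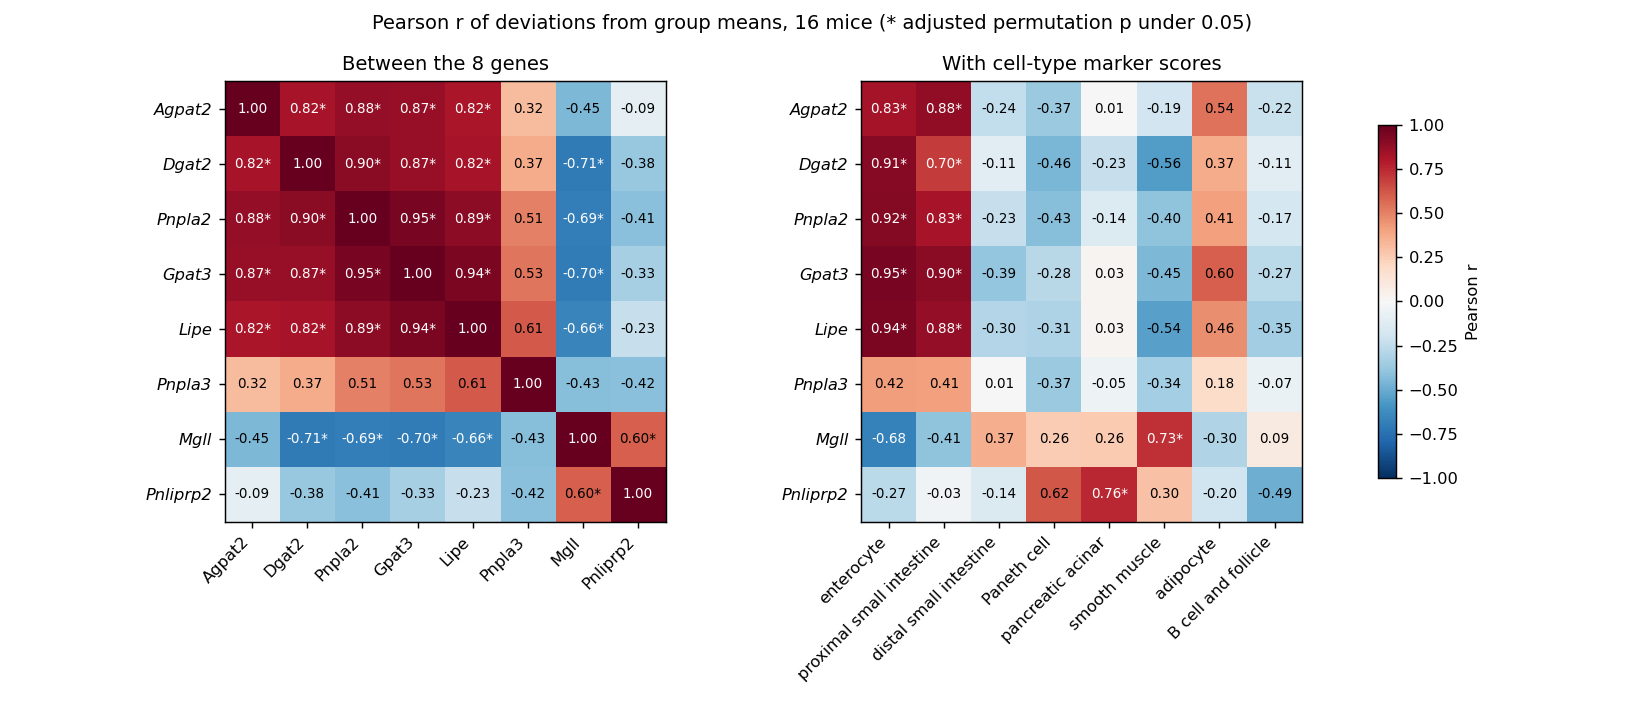
Cells give Pearson's r of deviations of log2 CPM from the group means over 16 mice, between the 8 genes (left) and between each gene and the mean of 8 marker lists (right), and a star marks an adjusted permutation p under 0.05. Agpat2, Dgat2, Pnpla2, Gpat3 and Lipe form a block of r from 0.82 to 0.95 that also follows the enterocyte and proximal markers, and Mgll follows the smooth muscle markers.

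Each gene was also set against the mean log2 CPM of 8 marker lists in the same way, 64 pairs in all, of which 12 passed. The same 5 genes followed the enterocyte markers, with r between 0.83 and 0.95, rho between 0.84 and 0.96 and adjusted permutation p of at most 0.0036. Without the 2 farthest mice r was between 0.83 and 0.93. They also followed markers of the proximal small intestine (Fabp1, Lct, Gata4 and others), with r between 0.70 and 0.90 and adjusted permutation p of at most 0.0382. The proximal result was the less stable. Of its 5 pairs, 4 passed without female Slfn3KO 1, female Slfn3KO 2, female WT 1, male Slfn3KO 2, male Slfn3KO 4 or male WT 2 (adjusted permutation p of up to 0.117). Without the WT libraries 3 and 4, when 8 of the 64 pairs passed, r was between 0.80 and 0.91 for the proximal list and only 1 of 5 pairs passed (adjusted permutation p of up to 0.0789). For the enterocyte list r was then between 0.83 and 0.96 and 4 of 5 passed (adjusted permutation p of up to 0.0747). The closest was Gpat3 with the enterocyte markers (r = 0.95, rho = 0.96, adjusted permutation p = 0.00208). Fabp2, Mttp and Apob, which carry fatty acids and assemble chylomicrons, are among these enterocyte markers, so the lists are not independent of fat handling.

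Mgll followed smooth muscle markers (r = 0.73, rho = 0.77, adjusted permutation p = 0.0055), and r was 0.76 without the 2 farthest mice. The mean log2 CPM of these markers was 3.60 in male WT 4, 3.23 in female Slfn3KO 2, 2.74 in male Slfn3KO 3 and 2.19 in female Slfn3KO 1, and at most 0.81 in the other 12 mice. Mgll with the enterocyte markers gave r = -0.68 (adjusted permutation p = 0.0705). Without the WT libraries 3 and 4 the r of Mgll with smooth muscle was 0.75 (adjusted permutation p = 0.0747). Whether layers below the mucosa entered some samples was not tested.

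Pnliprp2 followed the list of pancreatic acinar markers (r = 0.76, rho = 0.69, adjusted permutation p = 0.00526), with r = 0.70 without the 2 farthest mice and 0.65 without the WT libraries 3 and 4 (adjusted permutation p = 0.142). That list did not mark pancreas here. Of its 15 genes only 6 passed the filter, among them Clps, Pnliprp1 and Spink1. The defining pancreatic enzymes Pnlip, Cpa1, Cpb1, Cela2a, Prss2 and Cel had at most 2 counts in any mouse, Ctrb1 at most 3, and Cela3b and Amy2b had 0 in all 16, which allows 3 counts per library. Pnliprp2 itself had 233 to 1893 counts, with Pnlip at 0 or 1 in the same mice. With the Paneth cell markers the r of Pnliprp2 was 0.62 (adjusted permutation p = 0.207).

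**Figure D4:**
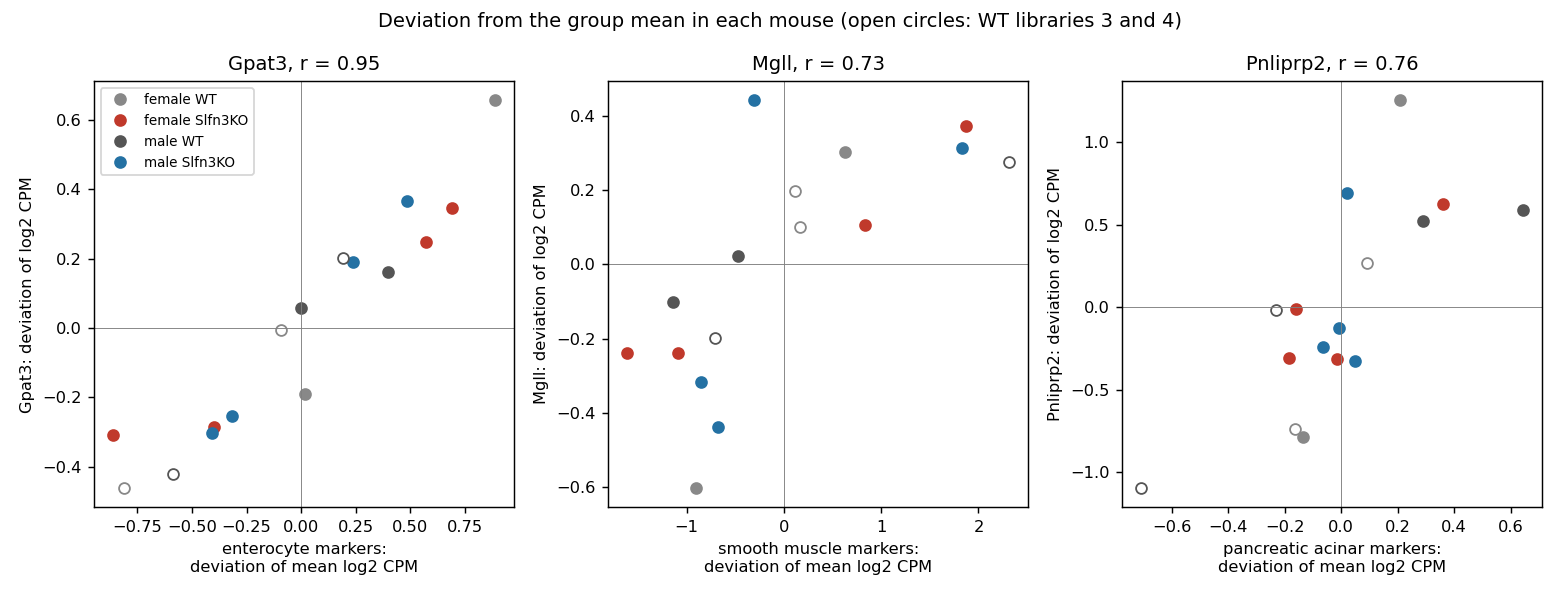
Points are the 16 mice, coloured by labelled group, with the deviation of the mean log2 CPM of a marker list from the group mean on the horizontal axis and that of the gene on the vertical axis. Gpat3 follows the enterocyte markers closely (r = 0.95), Mgll the smooth muscle markers (r = 0.73) and Pnliprp2 the 6 measured genes of the pancreatic acinar list (r = 0.76), and open circles are the WT libraries 3 and 4.

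Adipocyte markers were scarce and uneven. Adipoq (adiponectin) had 0 to 59 counts and was at 0 in 6 libraries, Plin1 (perilipin of the adipocyte droplet) had 0 to 12 counts, and Lep (leptin) had 0 to 4. The summed CPM of the 10 markers was 35.8 to 505 over the 16 mice, mostly from Pck1, Cidec and Aqp7. It was 91.1 to 505 in male Slfn3KO and 71.0 to 430 in male WT mice. In males 4 of the 5 markers fitted had a log2 fold change above 0 (median 0.36), and in females 0 of 4. The mean of Fabp4 (adipocyte fatty acid-binding protein) was 4.45 CPM in male Slfn3KO and 0.99 CPM in male WT mice. In the same order, Cfd (adipsin) was 3.67 and 0.14 CPM and Adipoq 1.29 and 0.026 CPM. Pck1 went the other way in males, at 139 CPM with the deletion and 158 CPM without it. The male Slfn3KO mice were uneven. The mean log2 CPM of the list (6 genes tested) was 3.55 and 4.33 in male Slfn3KO 2 and 4, but 1.75 and 2.38 in 1 and 3. In male WT mice it was 1.06 to 2.37. In females Fabp4 was at 1.70 CPM with the deletion and 2.34 CPM without it. Fabp4, Cfd, Adipoq and Pck1 are named after their values were seen. The part of fat tissue in the male values of Pnpla2, Lipe and the acyltransferases was not tested. No gene of the 8 passed with this list, the highest being Gpat3 (r = 0.60, adjusted permutation p = 0.156). Over all 16 mice, Pnpla2 ranged from 112 to 291 CPM and Lipe from 39.6 to 196 CPM.

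Over all 16 mice, the genes whose log2 CPM was most like that of Pnliprp2 among the genes tested were Wnk4 (r = 0.94), Nr2e3 (r = 0.94) and Sema5a (r = 0.94), and 275 genes had r above 0.8. Wnk4 encodes a kinase that controls ion transport and was at 7.70 CPM, and Sema5a encodes a semaphorin and was at 32.9 CPM. Nr2e3 encodes a nuclear receptor known from photoreceptors and was at 0.88 CPM. For Pnpla3 the most alike were Itga2b (r = 0.79), Sphkap (r = 0.79) and Gabrd (r = 0.75), and no gene reached 0.8. Likeness was ranked over the same libraries and depths, and it is given as a description.

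The wider pathway was followed in 4 lists. Of 26 other lipases and hydrolases, 22 were tested and 0 were called in any comparison. The share over all genes was also 0.0% in each comparison, so the counts called in the 4 lists show nothing particular to them. Their median log2 fold change was -0.02 pooled, -0.0031 in males and -0.20 in females, against -0.0037, -0.0016 and -0.0098 over all genes tested. The highest pooled value was 1.4 (SE 0.40) for Pnliprp1, the other pancreatic lipase-related protein, which had 1 to 37 counts. The lowest was -1.43 (SE 0.44) for Lipc (hepatic lipase), with 8 to 120 counts. Lipf, which encodes gastric lipase, had 0 counts in all libraries.

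Of the paralogs of Pnpla3 and Pnpla2, Pnpla6 had 1722 to 3208 counts, Pnpla8 had 756 to 1294, Pnpla7 had 159 to 667 and Pnpla1 had 20 to 60, whereas Pnpla5 had 0 in every library. The pooled log2 fold changes of the 4 that were tested lay between -0.18 and 0.30.

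Of 15 lipase cofactors and droplet proteins, 9 were tested and 0 were called, beside 0.0% of all genes. The median log2 fold change was 0.06 pooled, 0.14 in males and -0.20 in females. Clps, which encodes colipase, the cofactor that anchors pancreatic lipases on fat droplets, was 46.0 CPM in female Slfn3KO and 16.3 in female WT mice, and 36.4 in male Slfn3KO and 24.6 in male WT mice. Its pooled log2 fold change was 1.03 (SE 0.41), close to the 1.0 of Pnliprp2. By labelled sex the value of Clps was 1.48 (SE 0.47) in females and 0.58 (SE 0.58) in males. The values of Pnliprp2 in the labelled sexes lay closer together. Clps is named after its values were seen. The highest value was 1.84 (SE 0.95) for Plin4, with 0 to 29 counts, and the lowest -0.44 (SE 0.43) for Cidec, which enlarges lipid droplets. Abhd5, the coactivator of Pnpla2, was 30.3 to 36.4 CPM in the 4 group means (log2 fold change -0.13, SE 0.12), and its inhibitor G0s2 had 0 to 9 counts and was not tested.

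Of 22 other genes of glycerolipid synthesis, 21 were tested and 0 were called, beside 0.0% of all genes. The median log2 fold change was -0.08 pooled, 0.05 in males and -0.35 in females, where 14 of 20 were below 0. Over all genes tested in females, 48.9% were above 0. Agpat5 had the highest pooled value at 0.22 (SE 0.23) and Mogat1 the lowest at -1.61 (SE 0.88), with 0 to 44 counts. Dgat1, the diacylglycerol acyltransferase that acts beside Dgat2, had 11322 to 30665 counts, and Mogat2, which starts the route from absorbed monoacylglycerol, had 6134 to 14298. Agpat1 had 2858 to 4478 counts, Agpat3 695 to 1730, Agpat4 299 to 897 and Agpat5 195 to 843. Beside Gpat3, Gpat4 had 715 to 1976 counts, Gpam (the mitochondrial glycerol-3-phosphate acyltransferase) 30 to 220 and Gpat2 at most 4.

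All 10 transcription factors of lipid synthesis and storage were tested and 0 were called, beside 0.0% of all genes. Their pooled log2 fold changes were between -0.13 for Srebf2, which regulates sterol synthesis, and 0.26 for Pparg, the regulator of adipocyte genes. The median was -0.04 pooled, 0.11 in males and -0.11 in females. Beyond these shares and medians, the lists were not compared with all genes.

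**Figure D5:**
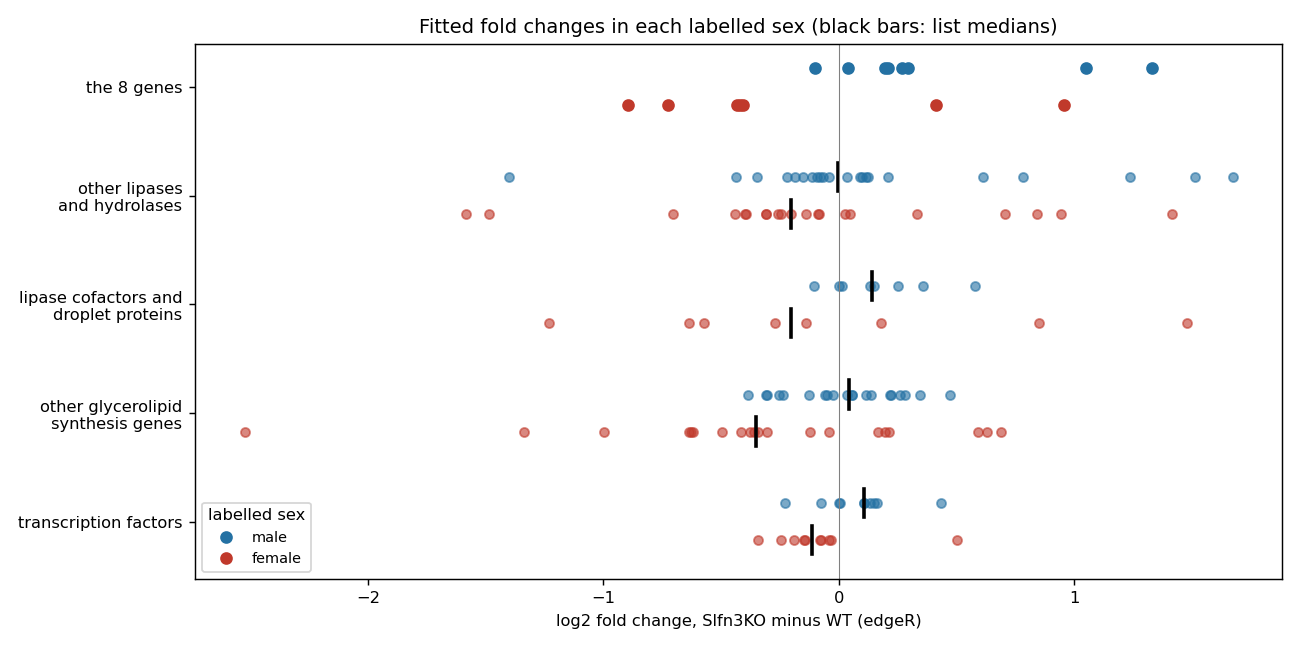
Points give the fitted log2 fold change, Slfn3KO minus WT (horizontal axis), of each tested gene in mice labelled male and female, for the 8 genes and 4 lists of related genes, and black bars are list medians. The list medians lie between -0.35 and 0.14, and Pnliprp2 is near 1 in both sexes. Single genes of the lists lie farther out, such as Pnliprp1 (1.51 in males), Clps (1.48 in females) and Lipc (-1.40 in males, -1.49 in females).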

How the data were processed

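The authors trimmed single reads from stranded libraries of 16 mice with cutadapt, used STAR for alignment to mm10, and deposited unnormalized counts for each gene. The table's header names featureCounts 1.4.6-p4 with reverse-stranded counting, whereas the methods name HTSeq. Symbols came from GENCODE M21 (45143 of 46078 identifiers).

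The 8 genes, the lists and the tests were chosen with earlier results of these data known. Fold changes were fitted over all genes with edgeR 4.0.16 in R 4.3.3 (TMM factors, filterByExpr, robust quasi-likelihood test), with sex as covariate in the pooled comparison. DESeq2 1.42.0 was an alternative. TPM used the table's exon lengths. CPM correlations used a prior count of 2, and permutations were run with numpy 2.4.6. Ranks and Poisson intervals used scipy 1.17.1. The fits were tested on simulated counts.

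Each library is described by the labels as a separate mouse. Same-numbered mice of the genotypes were compared by the correlation of their deviations from group means. It was 0.14 to 0.52 in males, which met the criterion set (over 0.1 in every pair), and -0.36 to 0.14 in females, which did not. Differently numbered mice were not compared, so these values cannot show that mice were paired. The fits had no block, and the permutations treated the mice of a group as exchangeable without using replicate numbers. The fit with the block was an alternative. Genes named beyond the 8 included the extremes of each list by pooled fold change, the paralogs, and the 3 genes most like Pnliprp2 and Pnpla3. Other list genes that are named, such as Clps, Abhd5, G0s2, Mogat2, Lipf and single markers, followed no such rule. Counting depth was 20823279 to 30813117 reads. Intervals and floors cover counting error only.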

Additional observations from a re-analysis of the deposited data

Results flagged for a closer look

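In 2 of 32 sets of 4 mice (8 genes in 4 groups) 1 mouse stood apart from the other 3 by Dixon's test at 95%, where chance alone flags about 1 set in 20. Pnliprp2 was at 68.2 CPM in male Slfn3KO 1, against 33.6 to 38.7 CPM in the other male Slfn3KO mice. The log2 fold change of Pnliprp2 in males was 0.75 without this mouse. Dgat2 was at 277 CPM in female WT 1, against 150 to 164 CPM in the other female WT mice, and its log2 fold change in females was -0.47 without this mouse.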

How the results depend on the processing

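By edgeR, 0 genes were called in each comparison under RLE factors, no filter, a minimum of 10 counts, no fold threshold, the other fits tried and with each mouse left out (range 0 to 0). Counts differed with an unadjusted p (984 pooled, 272 in males, 1366 in females, 946 for the interaction) and with DESeq2 (78, 20, 532 and 18). They also differed without the WT libraries 3 and 4 for the interaction (359). The fit with the replicate block called 0 genes in the pooled, male, female and interaction comparisons and gave a log2 fold change for Pnliprp2 of 1.13 pooled and 1.11 in males, and for Pnpla3 of 0.92 and 1.35. It changed no call. The correlations were not recomputed with a block for same-numbered male mice. Of the 8 genes, 3 had a pooled log2 fold change above 0, and 3 to 4 with each mouse left out. The interaction of Pnliprp2 was near 0 and changed sign in 7 alternatives.

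The number of correlated pairs among the 8 genes was 15, and 9 without female WT 1 (range 9 to 17 with each mouse left out). With marker lists it was 12 (range 11 to 18 with each mouse left out, 8 without the WT libraries 3 and 4), and of ordered pairs 27 in each case. The sign reversed for Pnliprp2 with Pnpla3 with group means not removed (r = 0.23), and for the unordered Pnliprp2 and Lipe without the WT libraries 3 and 4 (0.14 in log2 TPM) and without female WT 1 (range with each mouse left out -0.30 to 0.029). Leaving out those 4 libraries leaves fewer permutations within groups. The cause of the other differences was not tested. Depth limits Pnpla3 most, with at most 19 counts in a mouse.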
